A study of Mus musculus with 4 samples.

Results

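The miRNA miR-21a was followed through both arms of its hairpin, miR-21a-5p (MIMAT0000530) and miR-21a-3p (MIMAT0004628), in extracellular vesicles, the membrane particles that cells release with RNA inside. Its members are the row of miR-21a-5p in the deposited count table and the row on the same chromosome and strand whose start lies within 60 bases of it, which gave 2 of 2110 rows. All vesicles came from C2C12, an established mouse myoblast line whose genotype label is WT in every library, grown with 10% fetal bovine serum, and they were isolated by differential centrifugation. The damaged group held 2 libraries from cells treated with hydrogen peroxide, and the WT group held 2 libraries whose treatment label is WT. The study set out to compare the miRNA cargo of vesicles from damaged and healthy muscle cells. The labels do not say whether replicates came from separate cultures, so the p-values measure only the spread between these libraries, which may be technical. In such libraries fewer vesicles with a miRNA and fewer copies per vesicle cannot be told apart.

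A miRNA hairpin is cut into a duplex of a 5p and a 3p strand, one of which is usually loaded into an Argonaute protein as the guide while the other is mostly degraded. The guide finds target messages mainly through its seed, bases 2 to 8. miR-21 is among the most abundant miRNAs of many cultured and injured tissues, its transcription is known to respond to AP-1, STAT3 and NF-kB, and its known targets include Pdcd4, an inhibitor of translation, and Spry1, an inhibitor of growth factor signalling.

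The 2 mature strands are shown because they are the molecules counted and because they carry different seeds, given in capitals (RefSeq, GRCm38.p6, 5′ to 3′).
miR-21a-5p: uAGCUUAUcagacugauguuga
miR-21a-3p: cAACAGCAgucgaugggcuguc
Both strands are 22 bases long. The 5p strand holds 8 G or C bases (36.4%) and the 3p strand 13 (59.1%). On mm10 the 5p strand lies at chr11:86584120-86584141 and the 3p strand at chr11:86584082-86584103, both on the minus strand, with 16 bases between them. In the GENCODE vM21 annotation both lie within Mir21a (chr11:86584067-86584158), which overlaps exon 12 of Vmp1-201, a transcript of Vmp1, a gene for a membrane protein of autophagy read from the same strand. That stretch of the exon is 3′ UTR, and the first base of miR-21a-5p lies 1167 bases past the Vmp1 stop codon. No mature entry lies on the opposite strand of either arm, which matters because the counting used no strand option.

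Library totals were 4577668 and 7638663 counts in WT replicates 1 and 2, and 6901394 and 7350345 in damaged replicates 1 and 2. Between 692 and 746 rows had a count in a library. A count of 0 allows up to 3 counts, or 0.393 to 0.655 CPM (the count scaled to library depth). The muscle label of the cells can be read from miR-206-3p, made mainly in skeletal muscle, which held the highest level in every library. The summed share of a list of muscle miRNAs was 29.6% and 33.6% in WT and 35.7% and 38.3% in damaged. Most of that share was miR-206-3p, whose own change did not pass (0.18 on the log2 scale, adjusted p = 0.334 in edgeR). Suspected fragments of other RNA took 0.177% and 0.278% in WT and 0.644% and 0.690% in damaged. These shares differed between the groups alongside the values of miR-21a, and their part in them was not tested.

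miR-21a-5p, the guide strand, was one of the main components of the vesicle miRNA pool in both groups, and its change with peroxide treatment did not pass the test. In WT it took 13.7% of all counts of replicate 1 (626983 counts, exact Clopper-Pearson 95% interval 13.67 to 13.73) and 11.9% of replicate 2 (906217 counts, interval 11.84 to 11.89). In damaged it took 12.0% of replicate 1 (829851 counts, interval 12.00 to 12.05) and 8.25% of replicate 2 (606708 counts, interval 8.23 to 8.27). These intervals cover counting error only. Damaged replicate 2 was the one low library, and the groups overlapped, since damaged replicate 1 lay just above WT replicate 2. After TMM scaling, which corrects each library total for composition, the levels were 138842 and 119004 CPM in WT and 121056 and 80689 CPM in damaged. The WT mean was 128923 ± 14028 CPM and the damaged mean 100873 ± 28544 CPM (SD, n = 2 each), a ratio of 0.782. The difference was smaller than the SD of the damaged group, with an exact two-sided permutation p of 0.667. In edgeR's quasi-likelihood test over 536 rows the log2 fold change was -0.35 ± 0.21 (SE), with a 95% interval from -0.89 to 0.19 and a Benjamini-Hochberg adjusted p of 0.331. The interval spans both a fall and a small rise. Of all tested rows 9.51% passed at an adjusted p under 0.05, 5.41% with a lower and 4.1% with a higher level in damaged. The median log2 fold change over all tested rows was 0.02, and 182 rows (34.0%) had a lower one than miR-21a-5p.

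Compared number by number, damaged replicate 1 lay 0.20 below WT replicate 1 on the log2 scale (-0.20), and damaged replicate 2 lay further below WT replicate 2 (-0.56). With the numbers crossed, the log2 ratio was 0.02 for damaged replicate 1 over WT replicate 2 and -0.78 for damaged replicate 2 over WT replicate 1. The 2 damaged libraries differed from each other by more than the groups did. The log2 ratio of damaged replicate 2 over 1 was -0.59, against -0.22 for WT replicate 2 over 1. The counting SE of these log2 ratios was at most 0.0026, far below either gap.

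**Figure D1:**
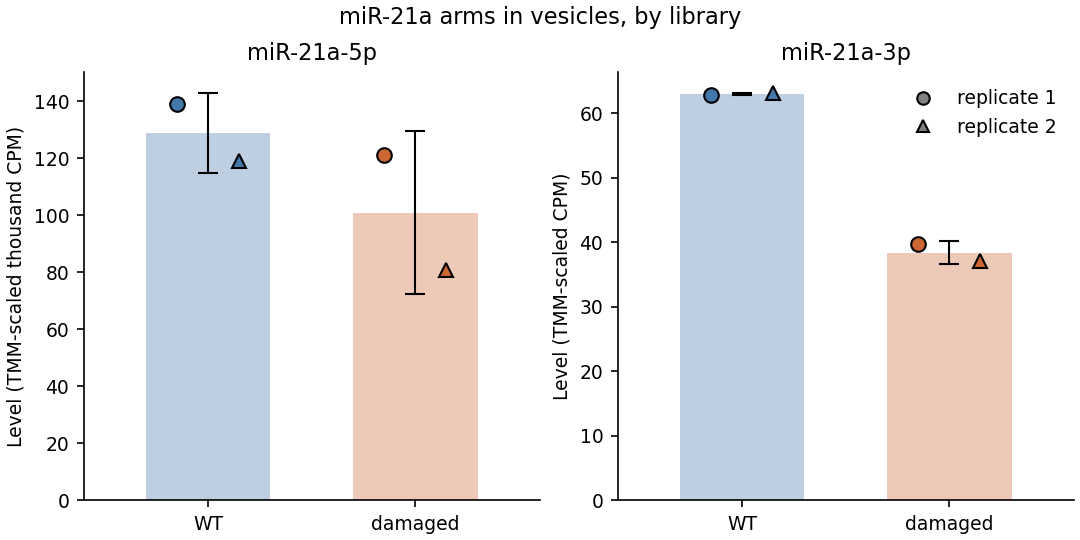
Level of miR-21a-5p (left, TMM-scaled CPM with the axis in units of 1000) and miR-21a-3p (right, TMM-scaled CPM) in WT and damaged vesicles. Bars are means of 2 libraries, error bars are SDs, circles are replicate 1 and triangles replicate 2. For miR-21a-5p the damaged replicates, at 121056 and 80689 CPM, stand apart from each other, while for miR-21a-3p both damaged libraries lie near 38.4 CPM and both WT libraries near 63.0 CPM.

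Among abundant rows the spread of miR-21a-5p in the damaged group was wide. Of the 69 rows with a mean of at least 1000 CPM, none had a larger gap between the damaged replicates in either direction, and the median size of the gap was 0.172 on the log2 scale. The next were miR-34c-3p, from a p53-responsive hairpin, at -0.56 for damaged replicate 1 over 2, miR-16-5p from Mir16-2, of a family that restrains the cell cycle, at -0.49, and miR-378a-3p, encoded in a Ppargc1b intron, at 0.46. In WT the gap of miR-21a-5p (0.22) was exceeded by 15 of the 69 rows (21.7%), where the median size was 0.113. The limit of 1000 CPM was chosen with earlier results of these data known.

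**Figure D2:**
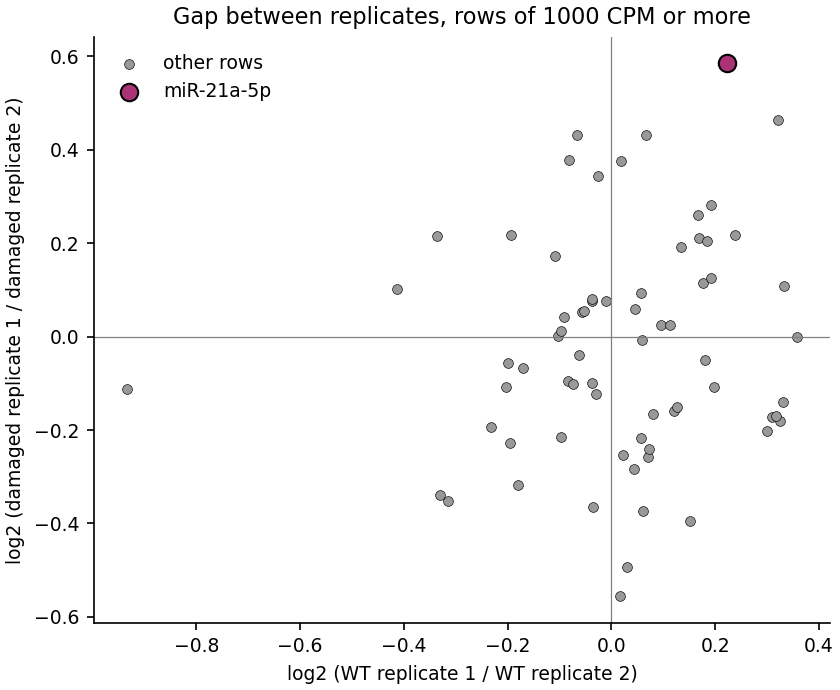
Log2 ratio of replicate 1 over replicate 2 in WT (horizontal axis) and in damaged (vertical axis), for the 69 rows with a mean of at least 1000 CPM. Each point is a row. miR-21a-5p, at 0.22 and 0.59, has the highest position on the vertical axis.

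miR-21a-3p, the strand that is mostly degraded, was lower in both damaged libraries than in both WT libraries, but its adjusted p stayed above 0.05. It had 284 counts in WT replicate 1, or 62.0 unscaled CPM (exact 95% interval 55.03 to 69.7), and 481 counts in WT replicate 2, or 63.0 CPM (57.5 to 68.9). In damaged replicate 1 it had 272 counts, or 39.4 CPM (34.9 to 44.4), and in damaged replicate 2 it had 279 counts, or 38.0 CPM (33.6 to 42.7). The groups did not overlap, and neither did the counting intervals of any WT and any damaged library. Such a separation, with both damaged libraries below both WT libraries, was seen in 30.8% of the tested rows. After TMM scaling the WT mean was 63.0 ± 0.194 CPM and the damaged mean 38.4 ± 1.82 CPM (SD, n = 2 each), a ratio of 0.609. With 2 libraries against 2 the exact two-sided permutation test cannot give less than the p of 0.333 found here. In edgeR the log2 fold change was -0.72 ± 0.20 (SE), with a 95% interval from -1.22 to -0.21, an unadjusted p of 0.0145 and an adjusted p of 0.0784. By p it ranked 99th of 536 rows, and 129 rows (24.1%) had a lower fold change.

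All 4 pairings of a damaged with a WT library gave similar log2 ratios for miR-21a-3p, between -0.77 and -0.66. The log2 ratio of replicate 2 over 1 was 0.0063 in WT and -0.10 in damaged, at or under the counting SE of such a ratio (0.108 to 0.123). The replicates of miR-21a-3p thus lay closer than counting noise alone would place them on average, and the SDs above understate its error. Of 81 rows with a mean of 25 to 100 CPM, 1 had a smaller gap in WT and 10 had a smaller gap in damaged, and the median sizes were 0.290 and 0.294.

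**Figure D3:**
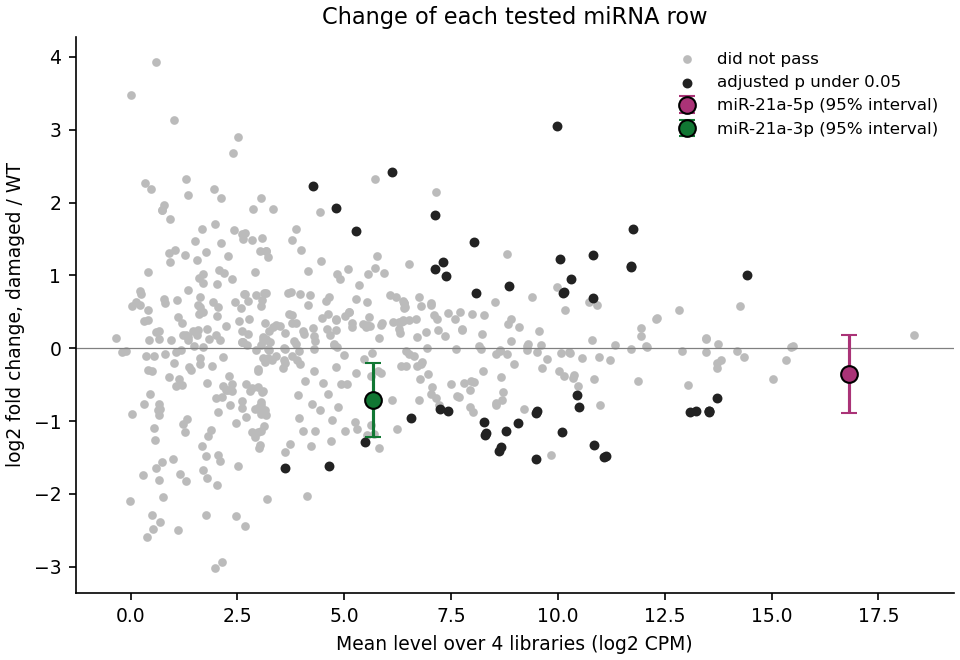
Log2 fold change of damaged over WT against mean level (log2 CPM over 4 libraries) for tested rows, each point a row, with those at an adjusted p under 0.05 in black. The 2 miR-21a arms carry 95% intervals: that of miR-21a-5p runs from -0.89 to 0.19 and that of miR-21a-3p from -1.22 to -0.21. Of 536 rows, 521 are plotted and 15 lie beyond a log2 fold change of 4 in size.

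The ratio of the 2 strands within a library does not depend on library size, so it was tested apart from the levels. For each count of the 3p strand WT replicate 1 held 2208 counts of the 5p strand (exact 95% interval 1965 to 2489), and WT replicate 2 held 1884 (interval 1723 to 2064). Damaged replicate 1 held 3051 (interval 2709 to 3449), and damaged replicate 2 held 2175 (interval 1934 to 2454). Damaged replicate 1 was the high library, and damaged replicate 2 fell between the WT libraries, so the groups overlapped. The 3p strand made up 0.0453% and 0.0530% of the reads of both arms in WT, and 0.0328% and 0.0460% in damaged. The mean ratio of WT libraries was 2046 ± 229 and that of damaged libraries 2613 ± 620 (SD, n = 2 each), with an exact two-sided permutation p of 0.667. In limma, on log2((5p + 0.5)/(3p + 0.5)) over 148 hairpins with both arms counted, the log2 ratio was 0.34 ± 0.38 (SE) higher in damaged, with a 95% interval from -0.50 to 1.18 and an adjusted p of 0.663. A different response of the 2 arms to peroxide was therefore not detected, within an interval that leaves room for a change in either direction. Of the 148 hairpins 3.38% passed.

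The strand bias of miR-21a was strong compared with most hairpins in the vesicles. Its mean 5p over 3p ratio of 2288 ranked 6th of 148 hairpins by size of the bias in either direction and 4th toward the 5p strand, while the median hairpin had 23.7 times more of one arm than the other. The hairpins with a higher mean ratio were miR-196a-2, from a Hox cluster, let-7a-2 and miR-26a-2 toward 5p, and miR-143 and miR-27a toward 3p. The minor strands of the first 3 had at most 25 counts in a library, and those of miR-196a-2 and miR-26a-2 were at 0 in 1 library, where the added 0.5 sets the ratio, so their order relative to miR-21a is uncertain. The minor strand of miR-21a had at least 272 counts in every library. Of the 148 hairpins 19 had a minor strand at 0 in a library. The 3 nearest in mean log2 ratio to miR-21a (11.16) were miR-218-1, hosted by Slit2 (10.48, with a 3p strand at 0 in 2 libraries, so that its mean is set by the added 0.5), let-7g (10.44) and let-7i (10.26), both of the let-7 family that restrains growth, and none of these 3 passed the test for a change. Of all hairpins 110 had a larger change of the ratio than miR-21a in either direction. The 5 hairpins that passed were let-7d (-1.51, adjusted p = 0.00496), miR-320 (2.21), miR-872 (-0.68), miR-125b-1 (1.43) and miR-34b (-2.69), the other four with an adjusted p of 0.0115, as log2 changes of 5p over 3p. The printed strands begin with different bases, u in the 5p and c in the 3p strand. A u came first in 67 of 134 major strands with a sequence and in 37 of 135 minor strands (27.4%), and a c in 40 minor strands (29.6%).

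**Figure D4:**
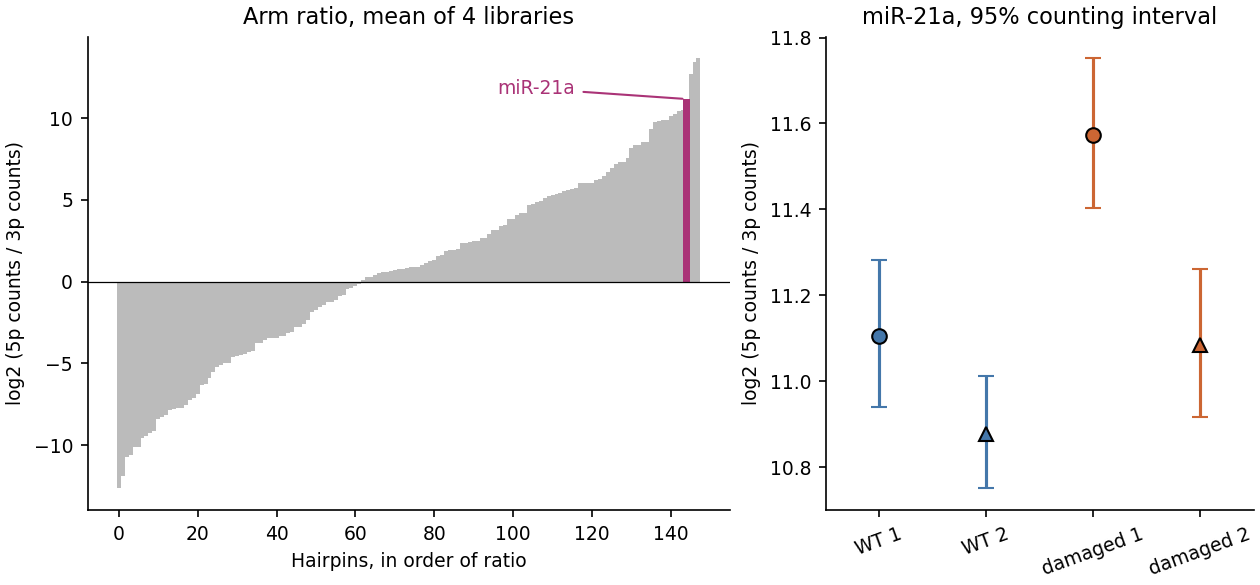
Left, mean log2 ratio of 5p over 3p counts (0.5 added to each) over 4 libraries for 148 hairpins in order, each bar a hairpin, with miR-21a at 11.16. Right, the log2 ratio of miR-21a in each library with its exact 95% counting interval. Damaged replicate 1 lies at 11.57 and the other libraries between 10.88 and 11.11.

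Among the rows of the table miR-21a-5p ranked 2nd by counts in every library, and miR-21a-3p ranked between 181st and 215th. Reads of let-7c-5p are split over 2 gene copies with one mature sequence, and with the copies of each miRNA summed miR-21a-5p was 2nd in 3 libraries and 3rd in damaged replicate 2, and miR-21a-3p ranked between 160th and 193rd. A read covers a whole mature miRNA, so rows were compared without a division by length. The row above it, miR-206-3p, had a mean 2.86 times that of miR-21a-5p. The mean of miR-21a-5p was 1.26 times that of let-7c-5p with its 2 copies summed. For each CPM of miR-206-3p there were 0.478 and 0.364 CPM of miR-21a-5p in WT and 0.354 and 0.226 in damaged. Both damaged values lay below both WT values, with the upper damaged value close to the lower WT value. miR-206-3p itself was at 290296 and 326855 CPM in WT and 341487 and 357644 CPM in damaged, which edgeR put at 0.18 on the log2 scale with an adjusted p of 0.334. Summed let-7c-5p lay between 89077 and 94039 CPM in the 4 libraries, and the ratio of miR-21a-5p to it was 1.56 and 1.287 in WT and 1.287 and 0.891 in damaged, where the groups met. The ratio to let-7b-5p was 3.26 and 2.67 in WT and 3.16 and 2.05 in damaged, and the ratio to miR-27b-3p was 3.24 and 3.55 in WT and 4.24 and 2.83 in damaged. For both the groups overlapped. The other rows among the 10 of highest mean level were miR-378a-3p, miR-23a-3p, miR-143-3p and miR-22-3p. With each let-7c-5p copy as its own row, both damaged ratios lay below both WT ratios for 6 of the 9 other rows. Among these 6 were miR-378a-3p, miR-23a-3p, miR-143-3p and miR-22-3p, and narrowly the Mirlet7c-2 copy of let-7c-5p (2.545 in WT replicate 2, 2.538 in damaged replicate 1). For its Mirlet7c-1 copy the groups overlapped. The damaged ratios lay above for 0 rows, and the groups overlapped for 3. All of these ratios share the level of miR-21a-5p, so they are not separate results. How many of all tested rows separate in this way was not counted, so the 6 have no background to be read against. Of the 9 rows beside miR-21a-5p only miR-22-3p, a muscle-rich miRNA, passed the test and rose, by 1.01 on the log2 scale (adjusted p = 0.0305), and miR-21a-5p exceeded it 9.74 and 7.97 times in WT and 3.599 and 3.23 times in damaged.

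The rows most like each arm across the 4 libraries were found by the root mean square difference of log2 CPM, each row centred on its own mean, among 159 rows with a mean of at least 100 CPM. For miR-21a-5p they were miR-582-5p (0.144), miR-31-3p (0.167), miR-652-3p (0.167), miR-181c-5p (0.172) and miR-143-3p (0.175), none of which passed the test. miR-582-5p was at 330.6 and 258.7 CPM in WT and 219.5 and 177.3 CPM in damaged, a log2 fold change of -0.57 with an adjusted p of 0.129 in edgeR. For miR-21a-3p the nearest rows were closer. They were miR-34a-5p, a direct target of p53 (0.0256), miR-675-3p, cut from the imprinted H19 RNA (0.0492), miR-140-5p, best known from cartilage (0.0630), miR-210-3p, induced by hypoxia (0.0806), and miR-872-5p (0.0807). miR-34a-5p was at 16895 and 16239 CPM in WT and 10633 and 9959 CPM in damaged, and it fell by 0.69 on the log2 scale with an adjusted p of 0.0275. miR-210-3p (-0.86, adjusted p = 0.0335) and miR-872-5p (-0.64, adjusted p = 0.0459) fell too. miR-675-3p and miR-140-5p had fold changes of -0.67 and -0.60 on the log2 scale, each with an adjusted p of 0.0531. The counting error of miR-21a-3p, at 4.56% to 6.06% of its count per library, was larger than the difference in pattern from miR-34a-5p. The 2 arms of miR-21a were further from each other, at 0.253, than either was from its 5 nearest rows. Those rows were picked as the nearest of 159, so this comparison cannot show that the arms differ.

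Other mature miRNAs with a miR-21a seed were nearly absent among the rows with a sequence. Rows without one, the rest of the 2110, were not searched and may hold further entries with either seed. Among 1740 entries with a RefSeq sequence (1670 distinct), 1 other entry shared the seed of miR-21a-5p, miR-21c (MIMAT0025148), and none shared that of miR-21a-3p. The entry miR-21b (MIMAT0025121) differs inside the seed. Their sequences are shown to let the near-identity with miR-21a-5p be seen, with capitals for bases that differ from miR-21a-5p or run past its end.
miR-21c: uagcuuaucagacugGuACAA
miR-21b: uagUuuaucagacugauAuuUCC
miR-21c (chr8:128278188-128278208, minus strand) matches the first 15 bases of miR-21a-5p, and miR-21b (chr3:29636768-29636790, plus strand) matches the first 3 and differs at 4 of 22 positions. miR-21c had 14 and 5 counts in WT and 2 and 9 in damaged, miR-21b had 1 count in WT replicate 1 and 0 elsewhere, and neither was tested. Against 2969759 counts of miR-21a-5p over the 4 libraries, the 30 and 1 counts of these entries would add little to its level.

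Short motifs that others have linked to the sorting of miRNAs into vesicles were searched on the printed RNA strand. GGAG and CCCU occur in neither arm. GGCU occurs in miR-21a-3p from position 16.
miR-21a-3p: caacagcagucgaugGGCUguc
Among all 1670 distinct sequences GGAG occurred in 14.3%, CCCU in 11.4% and GGCU in 13.3%, and among 410 sequences of tested rows in 9.76%, 10.2% and 12.0%. The capitals mark the match, which is a description of the letters and not a site.

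The arms differ in base composition, and the GC content of a row moved weakly with its fold change. Over 446 tested rows with a sequence, Spearman's rho between GC content and log2 fold change was 0.106, across rows that share the same libraries. The median log2 fold change was -0.15 for 92 rows under 40% GC, the class of miR-21a-5p, 0.09 for 242 rows of 40% to 55%, and 0.06 for 112 rows of 55% or more, the class of miR-21a-3p. Only 9.42% of rows had a lower GC content than miR-21a-5p, and 78.9% had a lower one than miR-21a-3p. With the GC trend of each library removed, the log2 fold change of miR-21a-5p was -0.17 (adjusted p = 0.671 in edgeR) and that of miR-21a-3p was -0.74 (adjusted p = 0.0794).

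The first 3 lists below hold miR-21a-5p by its known biology, and other members of each passed the test while it did not. Of miRNAs known to respond to AP-1, STAT3 or NF-kB, 13 of 18 rows were tested, of which 4 rose, 0 fell and 9 did not pass in edgeR, with a median log2 fold change of 0.46. At an unadjusted p under 0.05, 5 were higher and 0 lower. The shares over all tested rows, against which this and the following lists are to be read, were 4.1% higher and 5.41% lower after adjustment, 13.6% higher and 17.2% lower before it, and the median over all was 0.02. The 4 were miR-146a-5p, a brake on NF-kB signalling (1181.6 and 939.3 CPM in WT, 2451 and 2701 CPM in damaged, log2 fold change 1.28, adjusted p = 0.0161), miR-212-3p, driven by CREB (1.19, adjusted p = 0.0335), and the 2 gene copies of miR-125b-5p (0.75 and 0.78, each with an adjusted p of 0.0305). These copies have one mature sequence and cannot be told apart. The 5 untested rows, 3 of miR-9-5p and 2 of miR-24-3p, are at 0 in every library and share bases with an entry on the opposite strand. Because the counting used no option for strand or overlapping features, a 0 in such a row does not show absence. The same holds for such rows in the lists that follow.

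Of miRNAs reported to respond to peroxide or redox stress, 15 of 16 rows were tested, of which 1 rose, 3 fell and 11 did not pass, with a median of 0.40. miR-34b-3p, a p53-responsive miRNA, rose from 215.9 and 221.4 CPM in WT to 1580 and 2034 CPM in damaged (log2 fold change 3.05, adjusted p = 0.00351). miR-34a-5p, miR-182-5p (-1.03, adjusted p = 0.0201), of a sensory-organ cluster, and miR-210-3p fell. The most abundant member after miR-21a-5p, miR-27b-3p, stood at -0.42 (adjusted p = 0.124), close to the value of miR-21a-5p. The members that passed thus went both ways.

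Of miRNAs of fibrosis and fibroblast activation, 21 of 23 rows were tested, of which 2 rose, 2 fell and 17 did not pass, with a median of 0.01. Those that rose were the 2 copies of miR-133a-3p, a muscle miRNA (1.14 and 1.12, each with an adjusted p of 0.00914), and those that fell were the 2 copies of miR-199a-3p, encoded within Dynamin genes (-0.87 and -0.86, each with an adjusted p of 0.0305). The 2 rows of each pair share one mature sequence and cannot be told apart. A further row outside the list, miR-199b-3p, had a mean level (11919 CPM) and log2 fold change (-0.86) close to those of miR-199a-3p. The 2 untested rows, both of miR-24-3p, are at 0 in every library and share bases with an entry on the opposite strand. miR-143-3p, a smooth muscle and fibroblast miRNA, stood at -0.12 (adjusted p = 0.635). Of the muscle list 8 of 9 rows were tested, and 3 rose, 0 fell and 5 did not pass (5 higher and 0 lower at an unadjusted p under 0.05), with a median of 0.88. Those that rose were miR-133b-3p (1.22, adjusted p = 0.0107) and both miR-133a-3p copies. miR-1a-3p, also of this list, stood at 0.28 (adjusted p = 0.262) in its row at Mir1a-1. Its other row, at Mir1a-2, is at 0 in every library and shares bases with an entry on the opposite strand. Of the blood, liver and serum list 5 of 7 rows were tested and 0 passed in edgeR (2 higher and 0 lower at an unadjusted p under 0.05), with a median of 0.50. Its share was 0.172% and 0.152% in WT and 0.155% and 0.148% in damaged. Its main members were miR-451a, of red blood cells (-0.14, adjusted p = 0.533), and miR-150-5p, of lymphocytes (0.50, adjusted p = 0.332). The 2 higher before adjustment were miR-144-3p and miR-142a-5p. miR-144-3p had 0 and 0 counts in WT and 12 and 14 in damaged (adjusted p = 0.0807 in edgeR). miR-142a-5p had 1 and 0 counts in WT and 21 and 22 in damaged (adjusted p = 0.0903 in edgeR). The liver miRNA miR-122-5p and miR-142a-3p, of blood cells, are at 0 in every library, and each shares bases with an entry on the opposite strand. Of the suspected fragments 12 of 14 rows were tested, and 3 rose (miR-6240 by 1.64, miR-5121 by 2.22 and miR-2137 by 1.83 on the log2 scale), 1 fell (miR-5099-3p, -0.83) and 8 did not pass, with a median of 1.77. miR-21a-5p alone took a larger share of counts than the blood and fragment lists together in every library. Only 7 of the 8 names of the blood list and 14 of the 19 names of the fragment list had a row. The shares of these lists leave out the other names.

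The change of miR-21a-5p moved with the library left out more than that of miR-21a-3p did. Without damaged replicate 2 the edgeR log2 fold change of miR-21a-5p was -0.10 (adjusted p = 0.737), and without damaged replicate 1 it was -0.70 (adjusted p = 0.111). DESeq2 without damaged replicate 1 called it lower (-0.66, adjusted p = 0.000227), a fit in which the lone damaged library is taken to vary like the WT libraries. With all 4 libraries and other scalings, filters or tools, summed copies or a GC correction, the values ranged from -0.41 to -0.17. miR-21a-3p kept its value between -0.78 and -0.68 under those settings, and between -0.80 and -0.66 without any one library. It passed at one setting, a stricter filter that kept rows reaching 10 CPM in 2 or more libraries, with a log2 fold change of -0.73 and an adjusted p of 0.0459 over 318 rows.

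**Figure D5:**
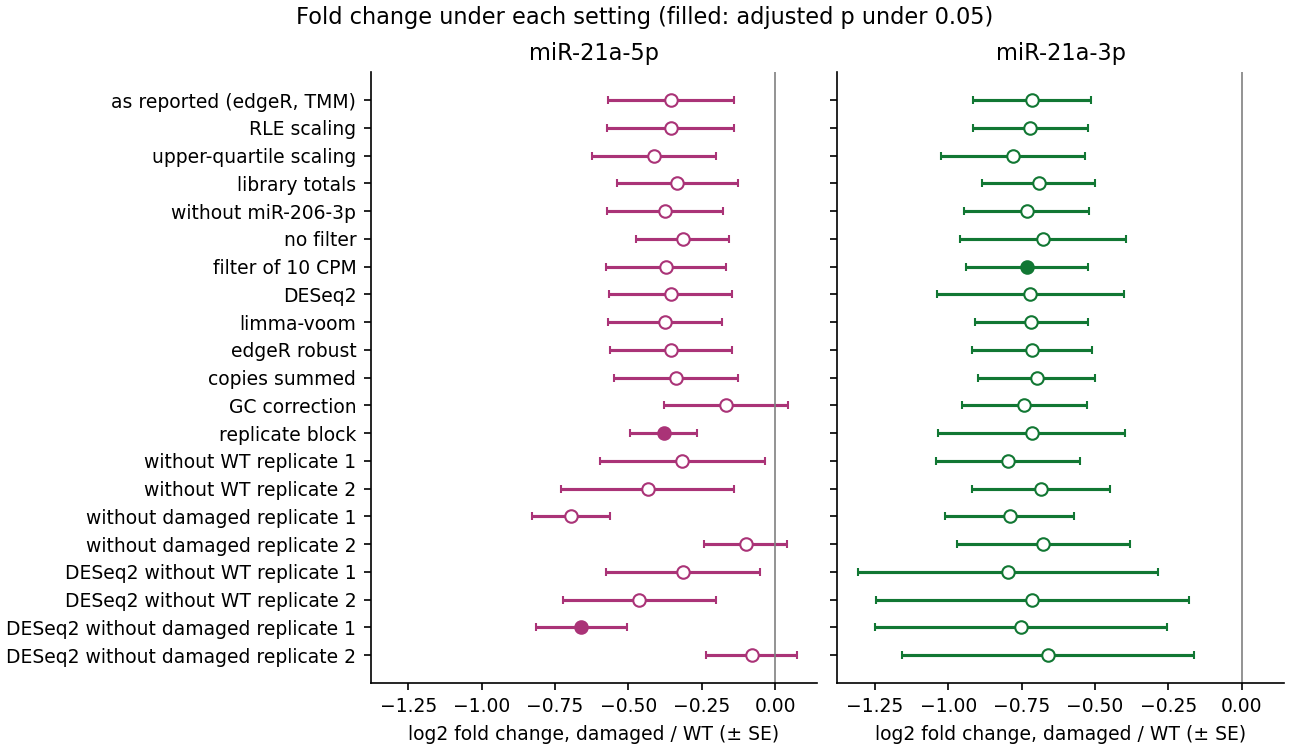
Log2 fold change of damaged over WT (± SE) for miR-21a-5p (left) and miR-21a-3p (right), one line for each setting, with filled circles for an adjusted p under 0.05. Values of miR-21a-5p run from -0.70 to -0.08 and move most with the damaged library left out, while those of miR-21a-3p run from -0.80 to -0.66.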

How the data were processed

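The deposited table gives a read count for each mature miRNA in each of the 4 libraries, made with FastQC, BWA and featureCounts on mm10, per the submitters' processing notes. Per the file headers, featureCounts 2.0.1 counted features of type miRNA by ID, with no option for strand, multi-mapping reads or overlapping features. Not given in the sources used here are the BWA version, the trimming and the release of miRBase. Groups follow the treatment labels, 2 libraries each, with 4577668 to 7638663 counts. Intervals and floors cover counting error only, since no molecular identifiers are named.

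Rows were named from their place in RefSeq GRCm38.p6 (1734 of 2110) or in a GENCODE vM21 hairpin (360), and 10 had no name. Sequences came from RefSeq for 1740 rows. edgeR 4.0.16 in R 4.3.3 (TMM, filterByExpr at a minimum count of 10, quasi-likelihood test, group as the only term, Benjamini-Hochberg at 0.05) was fitted to the whole table. The arm ratio was tested with limma 3.58.1 over hairpins with exactly 2 rows and both arms at 10 or more counts in at least 2 libraries. Exact tests used SciPy 1.17.1. The fits were also run on simulated counts with less spread and larger changes than those of miR-21a, which does not show their power here.

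Rows named were both arms, the 10 rows of highest mean CPM, rows with either seed, the 5 nearest patterns to each arm, list members that passed with the 2 most abundant of each list, and the 3 hairpins nearest in arm ratio with those that passed. Hairpins of stronger bias, rows with the next widest gaps, the 2 entries at 0 of the blood list and miR-21b were named after their values were seen. So were the rows of the blood list that were higher before adjustment, the copy of miR-1a-3p at 0, and miR-199b-3p. The members and lists were chosen with earlier results of these data known. Other settings were RLE, upper-quartile or no scaling factors, scaling without miR-206-3p, no filter or one of 10 CPM, DESeq2 1.42.0, limma-voom, robust edgeR, copies summed, a GC correction, a replicate block and each library left out. DESeq2 without each library was added after seeing the data.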

Additional observations from a re-analysis of the deposited data

How the results depend on the processing

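The labels give both groups replicate numbers 1 and 2, but nothing says that a number marks a shared culture, and deviations of same-numbered libraries correlated at 0.00316 over 536 rows. With the replicate block, edgeR gave -0.38 (adjusted p = 0.00605) for miR-21a-5p, -0.72 (adjusted p = 0.0918) for miR-21a-3p, and 127 rows called in place of 51. The arm ratio change with the block was 0.34 in limma (adjusted p = 0.793). Of the other 11 settings with all 4 libraries, none called miR-21a-5p, and the filter of 10 CPM alone called miR-21a-3p (-0.73). Leaving out each library gave -0.70 to -0.08 for miR-21a-5p over edgeR and DESeq2, called once, by DESeq2 without damaged replicate 1 (-0.66), and -0.80 to -0.66 for miR-21a-3p, not called. The arm ratio change was 0.34 to 0.36 over 5 settings (adjusted p 0.601 to 0.793) and 0.09 to 0.58 without each library. Rows called were 77 with upper-quartile scaling, 131 without a filter, 91 with the filter of 10 CPM, 109 with DESeq2 and 79 with limma-voom, and 38 to 76 under the other settings. Leaving out a library gave 0 to 77 rows: in the order WT replicates 1 and 2, damaged replicates 1 and 2, edgeR called 0, 0, 0 and 30 (103, 124, 144 and 138 with p below 0.05 before adjustment), and DESeq2 60, 75, 77 and 72. Hairpins called for the arm ratio, 5 as reported, were 12 with both arms at 100 counts, 9 with diffSpliceDGE and 0 without the variance trend (14 with p below 0.05 before adjustment), and 0 to 7 without each library (4, 7, 0 and 0, with 18 and 19 before adjustment for the last pair). The causes of these changes were not tested. miR-21a-3p had 272 to 481 counts a library. The counting SE of its log2 ratio between 2 libraries was 0.108 to 0.123, below the edgeR SE of 0.20. For miR-21a-5p the counting SE was at most 0.0026, far below the edgeR SE of 0.21. What makes up the rest of these errors was not tested.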
